A study of Arabidopsis halleri with 12 samples.

Results

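Cytochromes P450 (CYP) and glutathione S-transferases (GST) were described here across roots of Arabidopsis halleri, a plant that accumulates zinc in its leaves. The members were all genes with a probe set of their own whose symbol in the array's annotation began with CYP, a family number and a capital letter, or with GST and one of the class letters U, F, T, Z and L. This rule took 36 genes, 23 P450s and 13 GSTs, out of 13513 probe sets annotated to 1 gene and 22746 probe sets tested. None of the 36 had more than 1 probe set. Of the P450s 19 belonged to the CYP71B subfamily, and the others were CYP51G2, CYP78A9, CYP79A2 and CYP84A4. Of the GSTs 11 were of the tau class (GSTU), with GSTF4 of the phi class and GSTL3 of the lambda class. Most A. thaliana genes of both superfamilies were not among these 36, so the account covers this subset alone.

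Plants of the Langelsheim wild-type (WT) and of AhNAS2-RNAi-1-2, a line in which RNA interference suppresses the nicotianamine synthase gene AhNAS2, were vegetatively propagated clones kept in hydroponic culture for 5 weeks. Each line was grown in control Hoagland solution or in that solution with 10 µM Zn2+ added, which gave 4 groups of 3 arrays, each array from the pooled roots of 3 plants. The labels speak of 3 independent experiments without saying which array came from which. The p-values therefore reflect variation among pooled samples, some of which may share an experiment. Only 1 RNAi line was profiled, so suppression of AhNAS2 and other differences of this line cannot be told apart, and the sources used here do not give the promoter of the RNAi construct. The signal of AhNAS2 itself was not analysed here, so the RNAi label was not checked against its target. The root markers EXPA7 and EXPA18, expansins of root hairs, were at 7.17 to 8.62 and 5.99 to 7.60 (log2 signal, lowest to highest of 12 arrays), and the other 11 of 13 root markers had no named probe set. RCA, Rubisco activase of green tissue and the 1 of 15 shoot markers with a named probe set, was at 4.57 to 5.06, below every array's median of 5.34 to 5.38.

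P450s are haem enzymes of the endoplasmic reticulum that insert an oxygen atom from molecular oxygen into lipophilic substrates, with electrons from a reductase. In plants they build hormones, lignin, sterols, wax and suberin monomers and defence compounds such as glucosinolates, and the large CYP71 clan serves mostly specialised metabolism. Plant GSTs of the tau and phi classes use an active-site serine to activate glutathione, couple it to electrophilic compounds and also bind such ligands without reaction, and many of their genes respond to herbicides, oxidants and metals. Lambda GSTs carry a cysteine in that place and remove glutathione from conjugates. Glutathione is also the building block of the phytochelatins that bind metals.

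Across the 7 comparisons of the design, 0 of the 36 members passed the threshold of a limma adjusted p under 0.05, so no P450 or GST of this set changed detectably with the line, with zinc, or with their combination. The adjustment ran over all 22746 probe sets. The share of all probe sets that passed was 0.022% between the lines in control medium, 0.0528% between them under zinc and 1.05% over both media. For zinc it was 0% among WT roots, 0% among RNAi roots and 0% with the lines together, and 0% for the interaction of line and zinc. These shares are so low that a count of 0 in 36 is no result about these families in particular. At an unadjusted p under 0.05, limma gave 2 members for the line difference in control medium, 2 for that under zinc and 6 with both media pooled, and for zinc 0 in WT, 1 in RNAi and 1 with the lines pooled. The corresponding shares of all probe sets were 8.76%, 7.72%, 13.3%, 5.04%, 4.52% and 7.62%, and those of the members were 5.56%, 5.56%, 16.7%, 0%, 2.78% and 2.78%. For the interaction 0 members and 2.18% of all probe sets lay under that p.

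**Figure D1:**
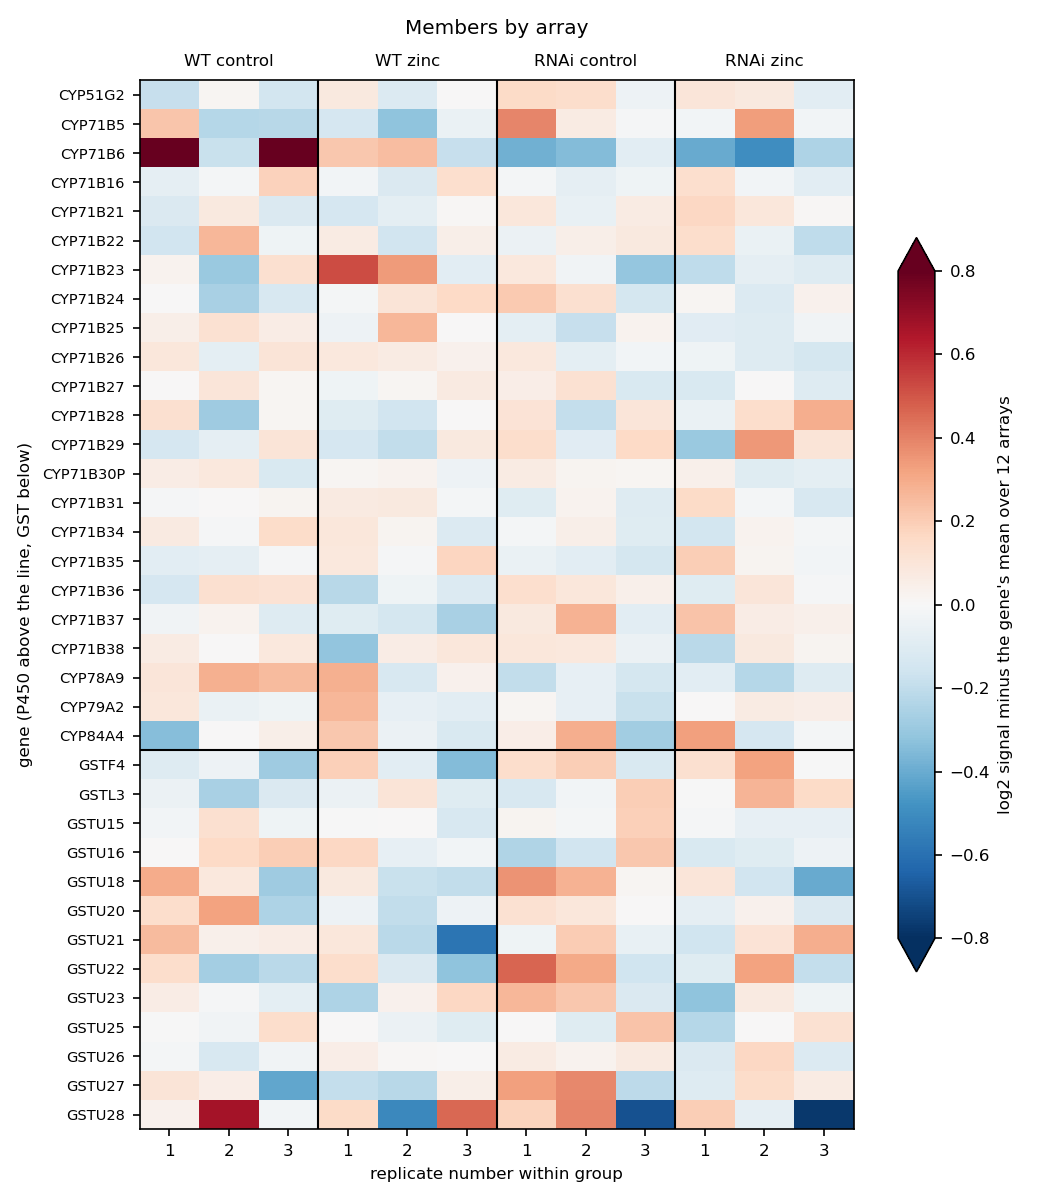
Log2 signal of the 36 members (rows) on the 12 arrays (columns, grouped by line and medium and numbered by replicate), drawn as the difference from each gene's mean over all arrays, with colours saturating at -0.8 and 0.8. Most cells are pale, and the strongest colours stand in single arrays of CYP71B6 and GSTU28.

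The intervals bound the differences in signal, which for a dim probe set need not bound those of its transcript. For RNAi against WT over both media, with 6 arrays per line, the 95% interval of the log2 fold change lay within -0.5 and 0.5 for 33 of the 36 members and within -1 and 1 for 35. For zinc over both lines it lay within 0.5 of 0 for 33 members. Within a medium or line, with 3 arrays per group, these counts were 28, 28, 32 and 30 for the lines in control medium, the lines in zinc, zinc in WT and zinc in RNAi. For the interaction it was 24. In the order given, the shares of the members within 0.5 of 0 were 91.7%, 91.7%, 77.8%, 77.8%, 88.9%, 83.3% and 66.7%. Those of all probe sets were 89.9%, 93.6%, 79.6%, 81.1%, 83.6%, 84.7% and 61.5%. The member shares lay near these, so the counts are no result about these families in particular. These intervals are for single genes and were not adjusted for the number of genes.

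The probes carry A. thaliana sequence, so mismatches in an A. halleri transcript can lower its signal, and closely related CYP71B or GSTU transcripts may share signal. Of the 23 P450s, 17 were below the array median on all 12 arrays and 3 (CYP71B23, CYP71B28 and CYP78A9) above it on all 12. Of the 13 GSTs, 3 (GSTU15, GSTU25 and GSTU26) were below it on all arrays and 8 above it on all. A change in the 20 members that stayed below the median may go unseen, since detection calls were not analysed here. In pooled root tissue fewer cells of a type and less RNA per cell cannot be told apart.

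RNAi and WT roots were compared to see which transcripts differed with suppression of AhNAS2. The lowest line difference of any member, before any test, was that of CYP71B6, which in A. thaliana oxidises indole-3-acetonitrile towards indole-3-carboxylic acid, a branch of indole defence metabolism. Its log2 signal (probe set 266000_at) in WT was 6.17, 5.003 and 6.05 in control medium and 5.39, 5.43 and 4.99 with zinc, in the order of replicates 1 to 3. In RNAi it was 4.80, 4.84 and 5.10 in control medium and 4.78, 4.68 and 4.93 with zinc. WT control replicates 1 and 3 stood about 1 unit above replicate 2, which overlapped the RNAi range, whereas with zinc all WT arrays lay above all RNAi arrays. The log2 fold change of RNAi against WT was -0.83 (SE 0.25, limma adjusted p = 0.324) in control medium and -0.47 (SE 0.25, adjusted p = 0.724) with zinc. Over both media it was -0.65, or 1.57-fold lower in RNAi (SE 0.18, 95% interval -1.04 to -0.27, adjusted p = 0.117), which did not pass. Without WT control replicate 2 the gene did pass, with a log2 fold change of -1.20 in control medium (limma adjusted p = 0.0182) and -0.84 over both media (adjusted p = 0.00362). That 1 array therefore decides the call. Without it the number of all probe sets past the threshold in control medium also rose, from 5 to 20, so the rise was not particular to this gene. Over the alternative settings that kept CYP71B6 the adjusted p over both media ran from 0.00362 to 0.248. The sign was negative in each of them, but the gene was picked for its low value and the settings share most arrays. That sign is therefore no separate support. The filter on dim probe sets left this gene out.

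CYP78A9, of a family that promotes organ growth and enlarges fruits when overexpressed in A. thaliana, had a smaller difference in the same direction, which did not pass either. Its log2 signal (251301_at) was 5.73, 5.92 and 5.89 in WT control, 5.43, 5.57 and 5.49 in RNAi control, 5.92, 5.50 and 5.67 in WT zinc and 5.55, 5.40 and 5.53 in RNAi zinc. In control medium every RNAi array lay below every WT array, and with zinc WT replicate 2 fell within the RNAi range. The log2 fold change was -0.35 in control medium (SE 0.10, adjusted p = 0.326), -0.20 with zinc (SE 0.10, adjusted p = 0.712) and -0.27 over both media (SE 0.074, 95% interval -0.44 to -0.11, adjusted p = 0.115), 1.21-fold lower. Over both media the adjusted p ran from 0.0719 to 0.233 across the alternative settings, so this gene passed under none of them.

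CYP71B23 (257623_at), a P450 with no role stated here, had its larger line value with zinc, where it did not pass. It was at 8.83, 8.65 and 8.23 in WT zinc and 8.11, 8.24 and 8.20 in RNAi zinc, against 8.34, 8.01 and 8.44 in WT control and 8.39, 8.28 and 7.998 in RNAi control. WT zinc replicates 1 and 2 were the highest of the 12 arrays and replicate 3 lay among the RNAi arrays. The log2 fold change was -0.39 with zinc (SE 0.16, adjusted p = 0.587) against -0.038 without added zinc (adjusted p = 0.974). Its interaction value was -0.35 (SE 0.23, adjusted p = 0.9999), so a difference between the media was not shown. Without WT zinc replicate 1 the zinc-medium value was -0.26.

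On the higher side in RNAi stood CYP71B37 and CYP71B5, both with signals below the array medians on all arrays. CYP71B37 (256875_at) was at 3.95, 3.90 and 3.79 in WT zinc and 4.27, 4.11 and 4.09 in RNAi zinc, with no overlap, and at 4.02, 4.07 and 3.94 in WT control and 4.12, 4.32 and 3.96 in RNAi control, where the lines overlapped. Its log2 fold change was 0.28 with zinc (SE 0.099, adjusted p = 0.519) and 0.20 over both media (SE 0.070, adjusted p = 0.229). CYP71B5 (251987_at) was at 4.08, 3.63 and 3.63 in WT control, 4.24, 3.92 and 3.84 in RNAi control, 3.72, 3.53 and 3.80 in WT zinc and 3.83, 4.19 and 3.83 in RNAi zinc. The lines overlapped in control medium and not with zinc. Over both media the log2 fold change was 0.25, the highest of the 36 (SE 0.11, adjusted p = 0.354).

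**Figure D2:**
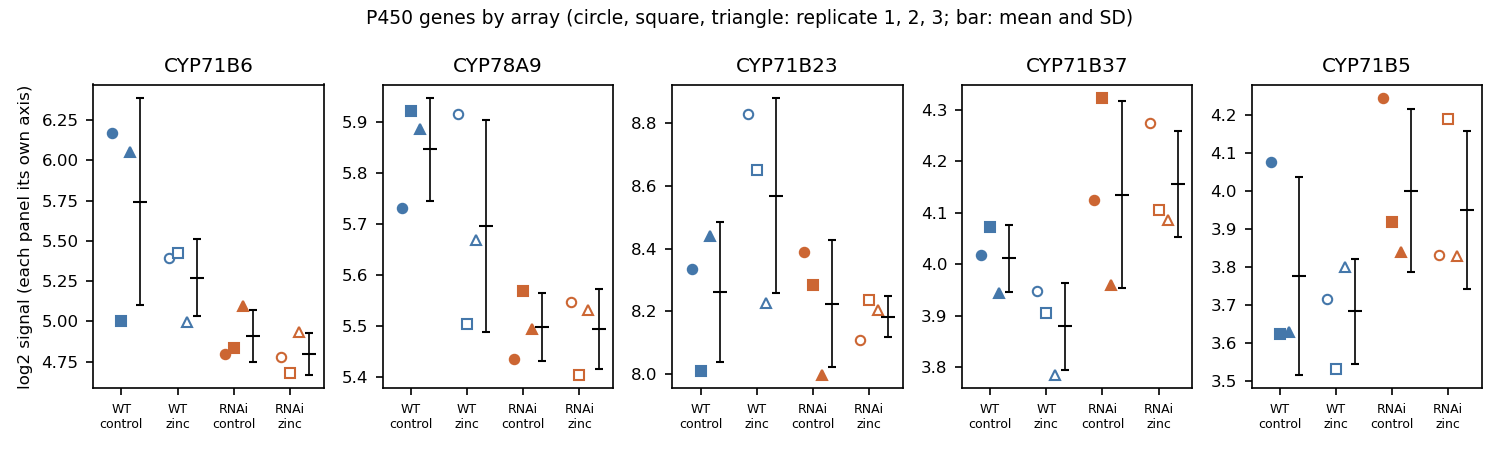
Log2 signal of CYP71B6, CYP78A9, CYP71B23, CYP71B37 and CYP71B5 on each array, by group (WT blue, RNAi orange; control filled, zinc open; circle, square and triangle for replicates 1, 2 and 3), each panel with its own axis. Black bars give the mean and SD of 3 arrays. WT control replicate 2 of CYP71B6 lies at 5.003, near the RNAi arrays, with the other WT control arrays at 6.17 and 6.05.

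Of the GSTs, GSTF4, the phi class member, had the largest positive line difference over both media. GSTF4 (262120_at) was at 9.34, 9.40 and 9.16 in WT and 9.58, 9.64 and 9.32 in RNAi without added zinc, and at 9.63, 9.36 and 9.10 in WT and 9.57, 9.76 and 9.44 in RNAi with it. The groups overlapped in both media. Its log2 fold change was 0.22 in control medium, 0.23 with zinc and 0.22 over both (SE 0.10, 95% interval 0.0045 to 0.44, adjusted p = 0.365). Replicate 3 was the lowest array in all 4 groups for this gene.

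The tau class members GSTU22 and GSTU27 lay beside it. GSTU22 (260803_at) was at 8.45, 8.04 and 8.09 in WT control and 8.77, 8.61 and 8.14 in RNAi control, and at 8.45, 8.19 and 7.99 in WT and 8.21, 8.63 and 8.12 in RNAi with zinc. GSTU27 (252712_at) was at 10.57, 10.52 and 10.05 in WT control, at 10.80, 10.85 and 10.26 in RNAi control, and with zinc at 10.28, 10.25 and 10.52 in WT and 10.37, 10.62 and 10.53 in RNAi. In both genes the third array of RNAi control fell among the WT values, and for GSTU27 the third WT control array was the lowest of its group too. Between arrays of the same number in control medium, RNAi minus WT was 0.32, 0.57 and 0.057 for GSTU22, 0.22, 0.34 and 0.20 for GSTU27 and 0.24, 0.24 and 0.16 for GSTF4. All 9 of these differences were above 0, whereas with zinc replicate 1 was below 0 for GSTU22 and GSTF4. GSTU22 and GSTU27 were named for high line differences in control medium, and GSTF4 for that over both media. Their signs are therefore no separate support, and the labels do not pair the arrays. Of the other GSTs, GSTU18 and GSTU26 had control medium differences all above 0, and the rest had both signs. With the replicate number as a block no member passed. The log2 fold changes over both media were 0.21 for GSTU22 (SE 0.13, adjusted p = 0.539; 0.14 to 0.30 without single arrays) and 0.21 for GSTU27 (SE 0.12, adjusted p = 0.512). GSTL3, the lambda class member (250967_at), had means of 8.68 ± 0.11 in WT and 8.84 ± 0.17 in RNAi without added zinc, and of 8.80 ± 0.11 and 8.96 ± 0.14 with it (SD, n = 3). Its log2 fold change over both media was 0.16 (SE 0.076, adjusted p = 0.413).

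GSTU28, also of the tau class, had the largest spread within groups of the 36, with a pooled SD of 0.49 log2 units, and CYP71B6 came next at 0.36. The median pooled SD was 0.12 for the P450s, 0.18 for the GSTs and 0.14 for all probe sets. GSTU28 (259964_at) in WT was at 7.44, 8.07 and 7.38 without added zinc and 7.56, 6.89 and 7.86 with it, and in RNAi at 7.58, 7.80 and 6.71 without it and 7.60, 7.33 and 6.63 with it. The third array was lowest in 3 of the 4 groups and the second in WT zinc, and the 4 groups overlapped. Its line difference over both media was -0.26 (SE 0.24, 95% interval -0.78 to 0.26, adjusted p = 0.709), and it ran over -0.39 to -0.093 without single arrays, nearest to 0 without RNAi control replicate 3. The root hair marker EXPA7 in WT was at 8.37, 8.50 and 8.02 without added zinc and 8.11, 7.48 and 7.75 with it, and in RNAi at 8.55, 8.62 and 7.52 without it and 8.05, 8.17 and 7.17 with it. Its lowest array in each of the 4 groups was also that of GSTU28 and of GSTU20. That pattern was picked after the values were seen. It held for 2 of the 36 members, near the 4.98% of all other probe sets, so it is no result about these members. The 2 were among the 13 GSTs and 0 among the 23 P450s, a split also made after the values were seen. The part of root hair tissue in the spread of GSTU28 was not tested.

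**Figure D3:**
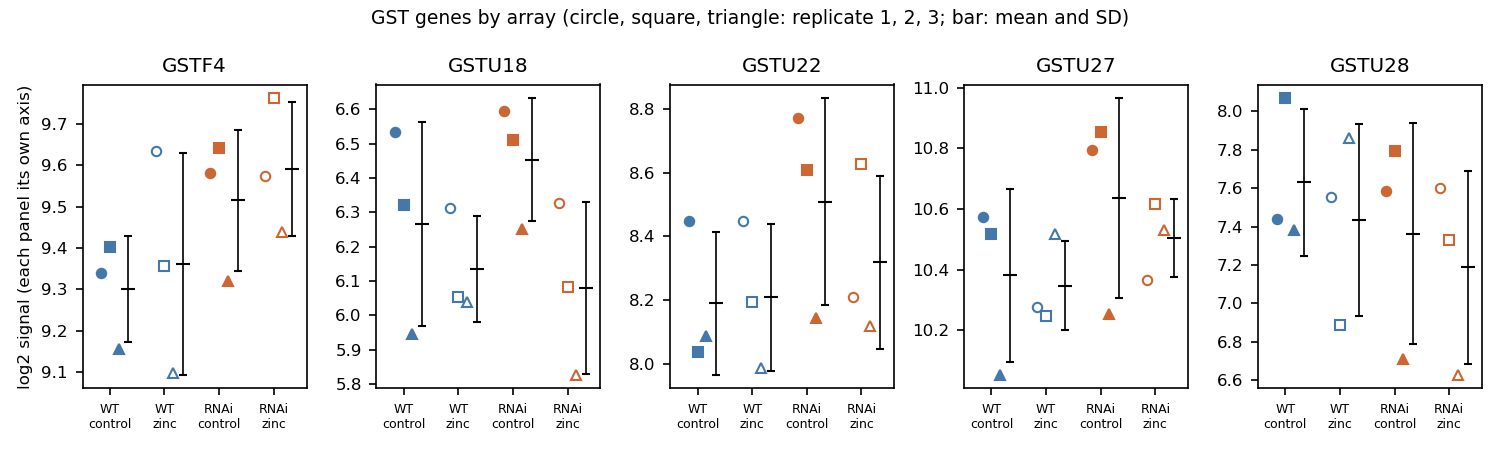
Log2 signal of GSTF4, GSTU18, GSTU22, GSTU27 and GSTU28 on each array, by group (WT blue, RNAi orange; control filled, zinc open; circle, square and triangle for replicates 1, 2 and 3), each panel with its own axis. Black bars give the mean and SD of 3 arrays. The third array is lowest in every group of GSTF4 and GSTU18, and GSTU28 spreads from 6.63 to 8.07.

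Members whose groups did not overlap were counted against the share of all probe sets so placed. In control medium 1 member was higher in RNAi (GSTU26, by 0.11) and 2 were lower (CYP78A9, and CYP71B25 by -0.15), while 6.82% and 7.09% of all probe sets, 13.9% together, were so placed. With zinc 3 were higher (CYP71B5, CYP71B37, and CYP71B21 by 0.15) and 2 lower (CYP71B6, and CYP71B26 by -0.15), against 5.84% and 6.82%, or 12.7% together. Over both media, 6 arrays against 6, it was 0 of 36 in either direction, against 1.7% (0.695% higher and 1% lower). No member was without overlap in the same direction in both media, and the share of all probe sets so placed was not counted.

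The medians of both families were small between the lines. The median log2 fold change over both media was -0.012 for the 23 P450s and 0.036 for the 13 GSTs, with 10 and 11 of them above 0. Over all probe sets the median was -0.0014 and 49.5% lay above 0. The GSTs above 0 numbered 10 in control medium and 7 with zinc, and the 2 below 0 over both media were GSTU28 and GSTU16 (-0.15, adjusted p = 0.485). Over all 36 members the median was 0.021, and over the 12 of them left when dim probe sets were left out it was 0.091. CYP71B23, CYP71B28 and CYP78A9 were the only P450s among those 12, so the mix of families differed too. Related GST transcripts can share probes and all members share the arrays, so these counts are not independent observations.

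**Figure D4:**
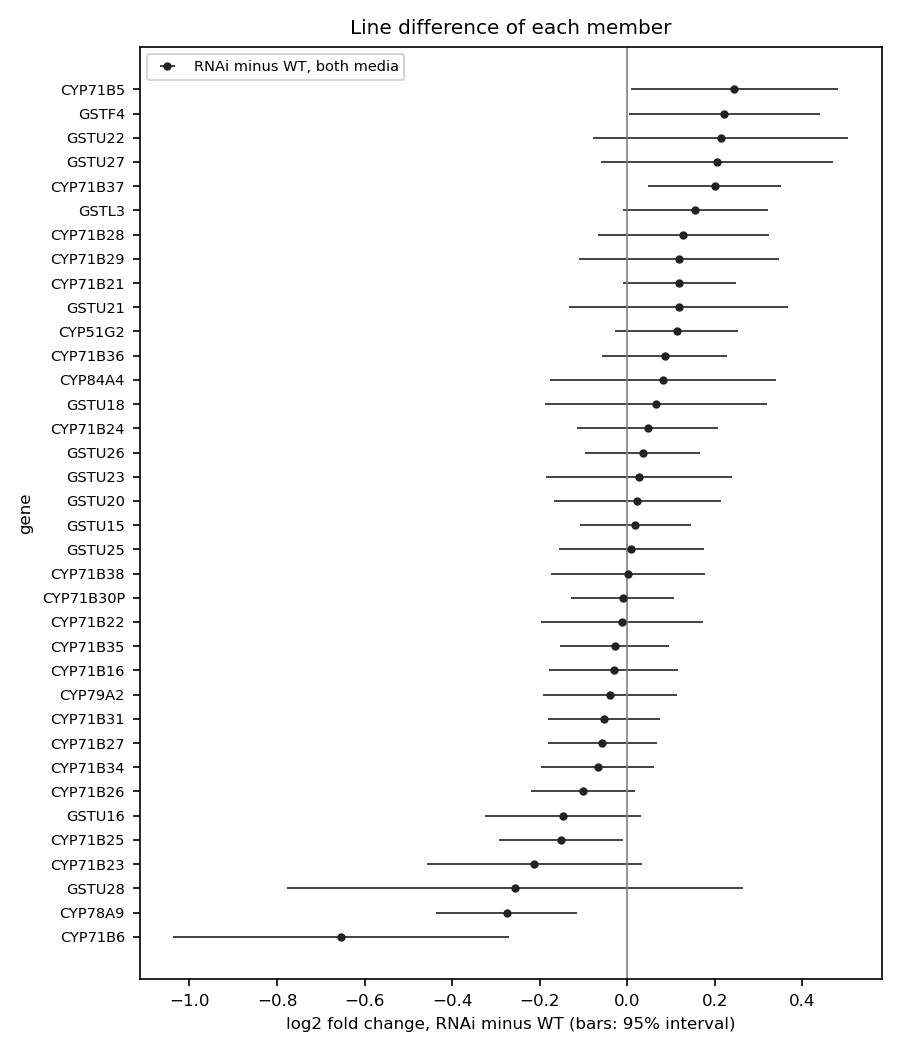
Log2 fold change of RNAi against WT over both media (x axis) for each of the 36 members (y axis), with the unadjusted 95% interval from limma (bars) and 6 arrays per line. The values run from -0.65 for CYP71B6 to 0.25 for CYP71B5, and none passed the threshold after adjustment.

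A further 20 members were never among the 3 highest or 3 lowest of a comparison. Their line differences over both media ran from -0.15 to 0.12. Among them were 3 enzymes with a known product. CYP79A2, which in A. thaliana turns phenylalanine into the aldoxime precursor of benzylglucosinolate, was at 3.40 to 3.84 over the 12 arrays, with a line difference of -0.039 (SE 0.070). CYP84A4, which makes a precursor of the arabidopyrones, was at 4.59 to 5.26 (0.082, SE 0.12). CYP71B31, which oxidises linalool in A. thaliana flowers, was at 2.94 to 3.22 (-0.053, SE 0.059). All of them stayed below the array medians. CYP51G2, a relative of the sterol demethylase CYP51G1, was at 4.26 to 4.60 (0.11, SE 0.064). The symbol CYP71B30P marks a pseudogene, and its probe set had the narrowest range of the 36, 3.33 to 3.53.

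Among the other CYP71B genes, CYP71B25 had a line difference of -0.15 (SE 0.065, adjusted p = 0.337), CYP71B26 of -0.10 and CYP71B21 of 0.12. CYP71B16, CYP71B22, CYP71B27, CYP71B34, CYP71B36 and CYP71B38 lay between -0.067 and 0.085, and CYP71B29 was at 0.12 (SE 0.10). GSTU25, which in A. thaliana conjugates the explosive TNT, was at 3.27 to 3.72 (0.0093, SE 0.076). GSTU20, known in A. thaliana as a partner of the jasmonate-conjugating enzyme JAR1, was at 8.25 to 8.82 (0.023, SE 0.087). GSTU15 and GSTU26 had line differences of 0.019 and 0.036.

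The zinc comparisons asked what 10 µM of the metal changed within each line, and no member passed in either line. Spike-in transcripts of non-plant origin, 9 probe sets on each array, averaged 9.60 to 9.87 on the zinc arrays and 9.90 to 10.28 on the control arrays, and their part in any zinc value below was not tested. In WT the lowest values were those of CYP71B6 (-0.47, SE 0.25, adjusted p = 0.972) and GSTU21 (-0.35, SE 0.16, adjusted p = 0.972). CYP71B6 rests there on the same WT control arrays as its line difference, and without WT control replicate 2 the value was -0.84. GSTU21 (260796_at) was at 6.10, 5.89 and 5.91 in WT control and 5.94, 5.63 and 5.26 in WT zinc, and in RNAi at 5.82, 6.05 and 5.79 without added zinc and 5.69, 5.96 and 6.14 with it. The third WT zinc array was the lowest of the 12. Its interaction of line and zinc was the highest of the 36, 0.40 (SE 0.23, adjusted p = 0.9999), and did not pass. Without WT zinc replicate 3 the zinc value in WT was -0.18 and the interaction 0.22.

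The highest zinc values in WT were CYP71B23 (0.31, SE 0.16, adjusted p = 0.972), CYP71B24 (0.21, SE 0.10, adjusted p = 0.972) and CYP71B35. Without WT zinc replicate 1 the value of CYP71B23 was 0.18. CYP71B24 had a value of -0.083 in RNAi and an interaction of -0.29 (SE 0.15, adjusted p = 0.9999). CYP71B35 (256873_at) was the only member whose zinc and control arrays were apart in both lines. That pattern was picked after the values were seen, and the share of all probe sets so placed in both lines was not counted. CYP71B35 was at 5.21, 5.22 and 5.28 in WT control and 5.38, 5.29 and 5.47 in WT zinc. In RNAi it was at 5.24, 5.21 and 5.15 in control medium and 5.49, 5.31 and 5.27 with zinc. In each line every zinc array lay above every control array, though in WT the nearest of them all but touched. The log2 fold change was 0.14 in WT roots, 0.16 in RNAi roots and 0.15 with both lines pooled, or 1.11-fold (SE 0.057, 95% interval 0.023 to 0.27, adjusted p = 0.608). In WT 2 members were higher without overlap (CYP71B35, and GSTU26 by 0.079) and in RNAi 1, against 5.17% and 4.61% of all probe sets, and 0 were lower, against 5.13% and 5.41%. In either direction the shares of all probe sets were 10.3% in WT and 10% in RNAi. With both lines pooled 0 members were without overlap, against 0.514% of all probe sets.

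In RNAi the lowest zinc values were all of the tau class. GSTU18 (264435_at) was at 6.60, 6.51 and 6.25 in RNAi control and 6.33, 6.08 and 5.83 in RNAi zinc, and in WT at 6.53, 6.32 and 5.95 without added zinc and 6.31, 6.05 and 6.04 with it. Control and zinc arrays overlapped in both lines, and in all 4 groups replicate 1 was highest and replicate 3 lowest. Its log2 fold change was -0.37 in RNAi (SE 0.16, adjusted p = 0.9996), -0.13 in WT and -0.25 over both lines (SE 0.12, adjusted p = 0.655). GSTU23 was at -0.22 (SE 0.14) and GSTU22 at -0.19 (SE 0.19). The highest in RNAi were CYP71B35, GSTL3 (0.12, SE 0.11) and CYP71B28 (0.12, SE 0.13). Each of these values rested on few arrays. Leaving out single arrays gave -0.50 to -0.25 for GSTU18, -0.34 to -0.10 for GSTU23 and -0.37 to -0.058 for GSTU22. It gave 0.090 to 0.20 for CYP71B35, 0.050 to 0.21 for GSTL3 and 0.020 to 0.21 for CYP71B28, and none changed sign. These genes were named for these same values and the fits share most arrays, so the kept signs are no separate support.

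Replicate 3 was the lowest array of all 4 groups for 3 members, GSTF4, GSTU18 and CYP71B37, and for 2.35% of all probe sets. Replicate 1 was the highest in all 4 for GSTU18 alone, against 0.976%. These members were picked out after their values were seen.

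Over both lines 10 of the 11 tau GSTs had a zinc value below 0, with a median of -0.090 and a range of -0.25 to 0.0027. In WT 9 and in RNAi 10 were below 0. None of the 11 passed, and the smallest adjusted p over both lines was 0.655. The 23 P450s had a median of -0.032 with 12 below 0, and all probe sets one of -0.0041 with 48.3% above 0. A difference between the tau GSTs and other genes was not tested. The root hair markers EXPA7 and EXPA18 also had zinc values below 0 over both lines, -0.48 (SE 0.22, adjusted p = 0.656) and -0.46 (SE 0.25, adjusted p = 0.714), and their part was not tested.

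**Figure D5:**
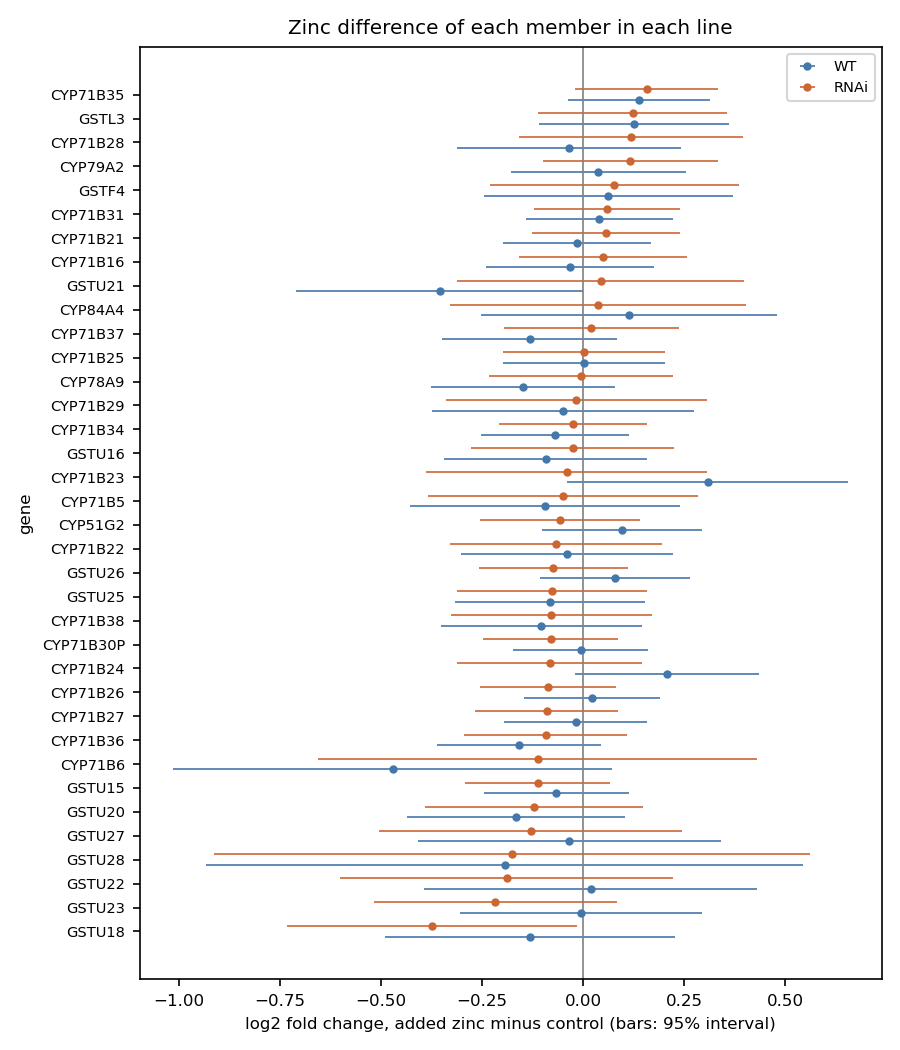
Log2 fold change of added zinc against control (x axis) for each of the 36 members (y axis) in WT (blue) and RNAi (orange), with unadjusted 95% intervals from limma (bars) and 3 arrays per group. CYP71B35 lies at 0.14 in WT and 0.16 in RNAi, CYP71B23 is highest in WT at 0.31 and GSTU18 lowest in RNAi at -0.37, and none passed after adjustment.

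The interaction of line and zinc ran from -0.35 for CYP71B23 to 0.40 for GSTU21, with a median of 0.016 over the 36 and of 0.0019 over all probe sets. CYP71B6 had the second highest value, 0.36 (SE 0.35), followed by CYP71B28 at 0.15 (SE 0.18), and CYP71B24 and GSTU18 (-0.24, SE 0.23) were the lowest after CYP71B23. These values came from the fit over all 12 arrays, and their intervals all included 0. Leaving out single arrays moved the value to 0.14 to 0.73 for CYP71B6, with the upper end without WT control replicate 2 and the lower without replicate 1. It was 0.055 to 0.27 for CYP71B28, -0.37 to -0.081 for GSTU18 and -0.52 to -0.22 for CYP71B23 without single arrays.

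Enzymes that work with P450s and GSTs were looked up from 5 lists of 53 genes, of electron donors, glutathione metabolism, other glutathione-using enzymes, vacuolar carriers and TGA-type regulators. Only 2 had a named probe set, and neither passed in any comparison. GR1, the cytosolic glutathione reductase that keeps glutathione reduced, had a mean log2 signal in WT of 7.42 ± 0.12 without added zinc and 7.42 ± 0.095 with it, and in RNAi of 7.34 ± 0.039 and 7.31 ± 0.067 (SD, n = 3). Its line difference over both media was -0.092 (SE 0.059, adjusted p = 0.550) and its zinc value over both lines -0.014 (SE 0.059). AT1G65820, a microsomal GST of a separate membrane-bound family, was at 5.07 ± 0.13, 5.21 ± 0.11, 5.14 ± 0.17 and 5.07 ± 0.027 in the same order, with a line difference of -0.036 (SE 0.071, adjusted p = 0.891).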

How the data were processed

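Root RNA of 12 pooled samples was hybridized as biotin-labelled cRNA to single-colour arrays. The authors deposited 1 log2 value for each probe set and array; the tools named in the submitters' processing notes are RMA and affy, with no version or setting given. These log2 values entered the fit unchanged and spanned 2.46 to 14.3. Precision is limited by the 12 arrays. Leaving out 64 control probe sets left 22746, of which 13513 were annotated to 1 gene, 503 to several and 8730 were unlisted. Replicates held identical values for at most 0.062% of probe sets.

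A group-means model over all 12 arrays was fitted with limma 3.58.1 in R 4.3.3 (lmFit, eBayes), tested on simulated data. P-values were two-sided and adjusted by the Benjamini-Hochberg method over all 22746 probe sets, with a threshold of 0.05. Differences are RNAi minus WT or zinc minus control. Two-sided 95% intervals used the moderated SE and were not adjusted. Named genes were the 3 highest and 3 lowest members of each comparison and those of largest spread; all members are named. Members, lists and tests were chosen with earlier results of these data known. In control medium the deviations of same-numbered WT and RNAi arrays from their group means correlated at 0.16, 0.29 and 0.48. These were above 0.1 in 3 of 3 pairs, so the replicate number was tried as a block. With zinc 1 of 3 pairs was above 0.1. Between the media the correlations were -0.31, -0.45 and -0.12 in WT and -0.084, 0.13 and 0.41 in RNAi. A block over all 12 arrays assumes a replicate effect common to all groups, which these values do not show. Other alternatives were the arrays fitted, a filter on dim probe sets, the variance trend, renormalization, centring and leaving out each array. No sequence is shown, because none was used here.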

Additional observations from a re-analysis of the deposited data

How the results depend on the processing

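In fits with a replicate block, to the 12 arrays or to those of 1 comparison, the count of members past the threshold was 0 in all 7 comparisons, as without it, and the block changed no call. In control medium, where the numbers may pair the arrays, CYP71B6 had an adjusted p of 0.332 and 0.202 under these replicate blocks, and CYP78A9 0.389 and 0.199 (limma). Leaving out single arrays gave counts of 0 to 1 between the lines in control medium and 0 to 1 over both media, and 0 in the other 5 comparisons. The 1 call was CYP71B6 without WT control replicate 2 in both cases, from -0.83 to -1.20 and from -0.65 to -0.84. The 2 arrays left in that group were assumed to vary like the other groups. Over both media 239 of all probe sets passed with all 12 arrays, and the number in that fit is not given here. In control medium 20 of all probe sets passed in that fit, against 5 with all 12 arrays. The number was 14 and 15 without WT control replicates 1 and 3, and 1 without RNAi control replicate 1. The median of the members in control medium was -0.0011 to 0.071 without single arrays, and that of the interaction -0.027 to 0.020. With dim probe sets left out 12 members remained, and their line medians were 0.092 in control medium, 0.077 with zinc and 0.091 over both media. Fewer genes enter these medians, and of the P450s only CYP71B23, CYP71B28 and CYP78A9, so the mix of families differed too. GSTU28 turned sign without RNAi control replicate 3, RNAi zinc replicate 3, WT control replicate 2 or WT zinc replicate 2, with ranges of -0.48 to 0.061 for the line in control medium, -0.52 to 0.032 for the line in zinc and -0.41 to 0.080 for zinc in WT. Apart from these, 796 of 809 values kept their direction and side of the threshold or stayed within the spread. The named genes were chosen by size in the same arrays, so their kept directions are no separate support. No gene had several probe sets, so the choice between them gave no value.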

Other observations

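A few probe sets of the same superfamilies fell outside the rule by their symbol and are given as values. CYP718, whose symbol has no subfamily letter, was at 5.40, 5.63 and 4.69 in WT control, 5.06, 4.68 and 5.53 in WT zinc, 5.10, 5.18 and 4.49 in RNAi control and 5.14, 5.18 and 4.68 in RNAi zinc, with a line difference over both media of -0.20 (SE 0.20, limma adjusted p = 0.723). ATGSTF13, a phi class GST listed with a species prefix, was at 3.33 to 3.71 over the 12 arrays (-0.061, SE 0.064). The probe set shared by CYP71B20 and CYP71B19 was at 4.99 to 5.36, with a line difference of 0.12 (SE 0.071, adjusted p = 0.509), and the one shared by AT1G58265 and CYP79C2 at 3.59 to 4.01 (0.13, SE 0.077). None of the 4 passed in any comparison.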
